A study of Nannochloropsis oceanica with 18 samples.

Results

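The plastid genome of Nannochloropsis oceanica, a unicellular marine alga that stores oil, carries a small set of genes for protein folding, protein breakdown and protein transport. Named rows of the deposited tables give 6 of them: cp-dnaK, cp-groEL, cp-ftsH, cp-clpC-I-2, cp-clpC-II and cp-secA, where the prefix cp marks the plastid. They are 6 of the 125 plastid genes and of 10493 genes in all. The rows were taken by name, in a choice made with earlier results of these data known. They were read in 18 libraries of polyadenylated RNA from strain IMET1, in 6 groups of 3. The groups cross 3 genotypes with 2 light levels. The genotypes are the wild type (WT), NO07G02030-ko (KO) and NO07G02030-oe (OE), which the labels call a knockout and an overexpression of the nuclear gene NO07G02030. Cultures of every strain were first grown at the lower light in f/2 medium. They were then kept for 8 days in flasks under a photon flux near 50 µmol per square metre and second (normal light, NL) or near 300 (high light, HL). The labels give the cell type as Colonial and do not explain the word. The labels describe biological replicates. The sources used here do not say how the strains were made, or whether each is 1 clone.

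DnaK is a chaperone of the Hsp70 family, which binds unfolded protein chains, and GroEL is the chaperonin that encloses proteins while they fold, the large subunit of Rubisco among its known plant substrates. FtsH is a membrane-bound protease, known in plants and cyanobacteria for removing light-damaged D1 protein from photosystem II. ClpC is the ATP-driven unfoldase that feeds proteins to the Clp protease. SecA is the motor that pushes proteins through the SecY channel into the thylakoid in plants. Plastid transcripts generally lack the long poly(A) tails of nuclear messenger RNA, and selection of polyadenylated RNA keeps few of them.

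Total counts ran from 14614662 to 18156739 per library. The plastid genes together had 522 to 3816 counts in a library, and the 6 genes had 22 to 460, between 3.22% and 13.2% of the plastid counts. The NO07G02030 transcript was not called lower in KO or higher in OE at either light (log2 fold change against WT -0.37 and 0.44 for KO, -0.20 and 0.41 for OE, at normal and high light, adjusted p = 0.155 or more in edgeR). The strain names therefore stand for labels here. Plastid transcripts stood lowest in OE: 66.9 ± 45.2 CPM (counts per 1000000 counts of the library) in NL_OE and 46.8 ± 22.6 in HL_OE, while WT had 97.5 ± 36.9 at normal and 102 ± 74.7 at high light, and KO had 208 ± 115 and 118 ± 51.2 (mean ± SD, n = 3). Mitochondrial transcripts stood at 13.5 ± 1.34 and 13.8 ± 6.23 CPM in NL_OE and HL_OE and at 31.3 to 65.0 CPM in the other group means. Replicates differed widely in plastid transcripts. HL_WT replicate 1 had 188 CPM where the other HL_WT libraries had 54.7 and 62.8, and NL_KO replicate 1 had 76.0 CPM where the others had 270.5 and 278. NL_OE replicate 3 had 118 CPM beside 49.4 and 33.0, and HL_KO had 62.5, 164 and 127. In bulk cultures, a transcript present in fewer cells and one at a lower level per cell cannot be told apart.

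Per transcript length, cp-dnaK stood highest of the 6. Its mean over the 18 libraries was 5.15 TPM, a level scaled for transcript length and library total, rank 9 of the 125 plastid genes. The levels of the other genes were 1.11 TPM for cp-ftsH, 0.783 for cp-secA, 0.725 for cp-clpC-II, 0.489 for cp-groEL and 0.389 for cp-clpC-I-2, ranks 40 to 76. In counts cp-dnaK had 1415 over all libraries, 59.2% of the counts of the 6 genes, and ranked 3 among plastid genes. At the other end cp-clpC-I-2 had 73 counts and cp-groEL 97, with 4 and 5 libraries at 0. All 6 genes passed the count filter. However, cp-clpC-I-2 and cp-groEL each reached 10 counts in 3 libraries and cp-clpC-II in 4. These 3 genes passed through those few libraries where they were high, all of WT or KO. cp-secA reached 10 counts in 11 libraries, also all of WT or KO, and had at most 5 counts in an OE library. The tests of these 4 genes against OE are therefore not independent of the filter. The biological coefficient of variation was 49.7% for cp-dnaK, 54.5% for cp-ftsH, 64.1% for cp-secA and 79.6% to 98.3% for the other 3, against a median of 19.8% over all tested genes.

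The files hold another row, cp-clpC-I, with 31 counts in all. Counts and TPM together imply an effective length of 0.123 times that of cp-dnaK for cp-clpC-I and of 0.682 times for cp-clpC-I-2. The RefSeq gene table for the IMET1 assembly ASM5162214v2 lists the symbol clpC-I at both places, each beside a copy of psbV. Whether these rows share sequence, and reads, was not tested, so the values of cp-clpC-I-2 are uncertain. The same table puts no 2 of the other genes next to each other: cp-dnaK lies between rpl3 and ycf34, cp-groEL between psbW and psaI, cp-ftsH between cbbX and psaE, cp-clpC-II between sufC and psbY, and cp-secA between ycf54 and rpl34. The sources used here do not name the assembly behind the tables, so no coordinates are given.

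The chaperone gene cp-dnaK had a lower mean at high light than at normal light in each of the 3 strains, and the difference passed the test when averaged over them. In WT it had 12.6, 5.48 and 6.02 CPM at normal light and 4.31, 1.26 and 0.988 CPM at high light. Every normal-light library of WT was above every high-light library. In OE the values were 3.06, 1.95 and 2.59 CPM at normal light and 1.20, 1.04 and 1.22 CPM at high light, again without overlap. Groups that do not overlap, with the high-light one lower, were found for 17.3% of all tested genes in WT and 20.0% in OE. In KO the values were 4.34, 11.8 and 24.0 CPM at normal light and 3.23, 7.01 and 2.34 CPM at high light. There HL_KO replicate 2 lay above NL_KO replicate 1, so the groups overlapped, while 6.95% of tested genes were apart with high light lower. Within a strain the difference did not pass the threshold of an adjusted p below 0.05, with log2 fold changes of -1.89 (SE 0.62, adjusted p = 0.055) in WT, -1.68 (SE 0.60, adjusted p = 0.127) in KO and -1.13 (SE 0.65, adjusted p = 0.943) in OE. Averaged over the strains, a comparison added after the values had been seen, cp-dnaK was called lower, the 1 gene of the 6, with an adjusted p = 0.0107 in edgeR and a log2 fold change of -1.57 (SE 0.36). Of all tested genes 6.76% were called lower there. The call was kept under all 27 alternative settings, with a log2 fold change between -2.06 and -1.20. The WT call turned on the libraries in the fit. It passed without HL_WT replicate 1 (-2.81, adjusted p = 0.0136), without NL_KO replicate 1 (0.0282), without NL_KO replicate 3 (0.0442) and without HL_KO replicate 2 (0.0379). Without NL_WT replicate 1 it was -1.42 and did not pass (adjusted p = 0.203). The KO value was -0.94 without NL_KO replicate 3 (adjusted p = 0.445), and it passed with HL_KO replicate 2 and HL_WT replicate 1 both left out (-2.24, adjusted p = 0.0487).

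**Figure D1:**
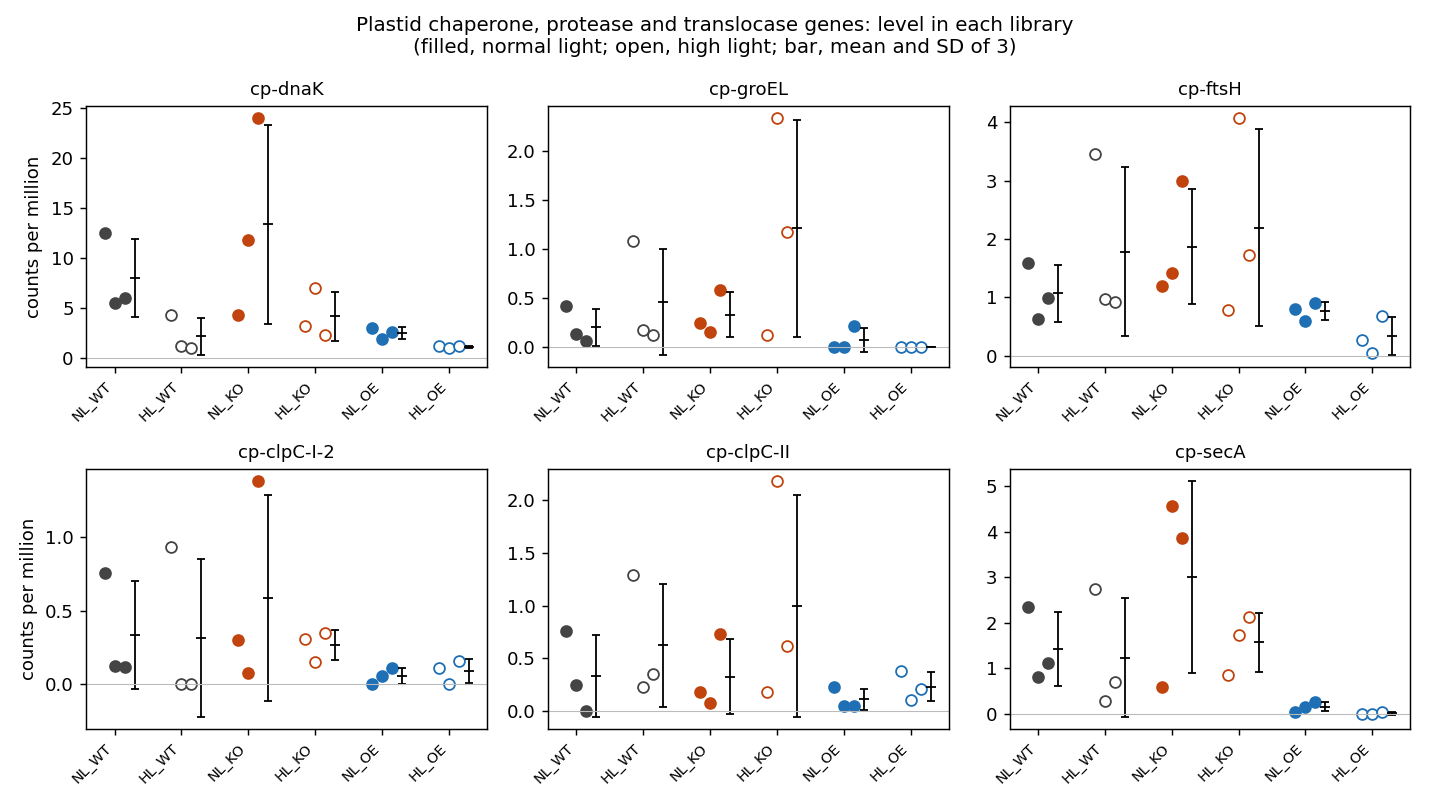
CPM of each of the 6 genes (vertical axes, linear) in the 18 libraries by group, with points for libraries (filled at normal light, open at high light) and bars for the mean and SD of 3. In cp-dnaK the open points of WT and OE lie below the filled ones, and in cp-secA all OE points lie below all WT points at the same light.

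The other 5 genes did not pass the light comparison averaged over the strains. The log2 fold change was -1.29 (SE 0.66) for cp-secA, 1.17 (SE 0.66) for cp-clpC-II, -0.07 (SE 0.40) for cp-ftsH and -0.20 (SE 0.97) for cp-clpC-I-2. For cp-groEL no fold change is given, because HL_OE had 0 counts, and its adjusted p was 0.768. Within strains edgeR called 0 of the 6 genes in WT, KO or OE, where it called 13.3%, 2.85% and 0.333% of all tested genes. At an unadjusted p under 0.05 there was 1 gene in WT, 1 in KO and 0 in OE. Of all 9912 tested genes 2881, 2203 and 649 were under it in edgeR. DESeq2 called 1 in WT, cp-dnaK, and 0 in the other strains. It called 19.3% of all tested genes in WT, 8.79% in KO and 1.42% in OE. Differences between light responses were called for 0 of the 6 genes by edgeR, with 0 at an unadjusted p under 0.05 for KO against WT (adjusted p = 0.754 or more) and 0 for OE against WT (adjusted p = 0.379 or more). DESeq2 and limma also called 0. All tested genes had 0.605% and 3.70% called by edgeR in those comparisons, and 1774 and 1751 of 9912 at an unadjusted p under 0.05. Of the 30 other tested plastid genes, 1 was called in the light comparison averaged over the strains: cp-psbB, which encodes an antenna protein of photosystem II, fell by 1.42 on the log2 scale (edgeR adjusted p = 0.0182).

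Relative to the rest of the plastid transcripts, the mean share of cp-dnaK was smaller at high light, by a difference that did not pass after adjustment. It made up 2.87% ± 1.26 of plastid counts in the 9 high-light libraries and 6.36% ± 2.23 in the 9 normal-light libraries (mean ± SD). In WT the share was 9.01%, 6.53% and 8.69% at normal light and 2.30%, 2.31% and 1.57% at high light. These groups of WT are well apart, while KO and OE overlap between lights. A two-sided exact permutation test of light labels within strain gave p = 0.0035 for cp-dnaK. Adjusted over all 108 such tests, which cover 36 plastid genes and 3 comparisons, the value was 0.0675 and did not pass. For cp-clpC-II the share was higher at high light, 0.601% ± 0.346 against 0.226% ± 0.190, and did not pass either (exact permutation p = 0.0085, adjusted 0.101). Of the 108 tests 0 passed, and 23 had an unadjusted p under 0.05.

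**Figure D2:**
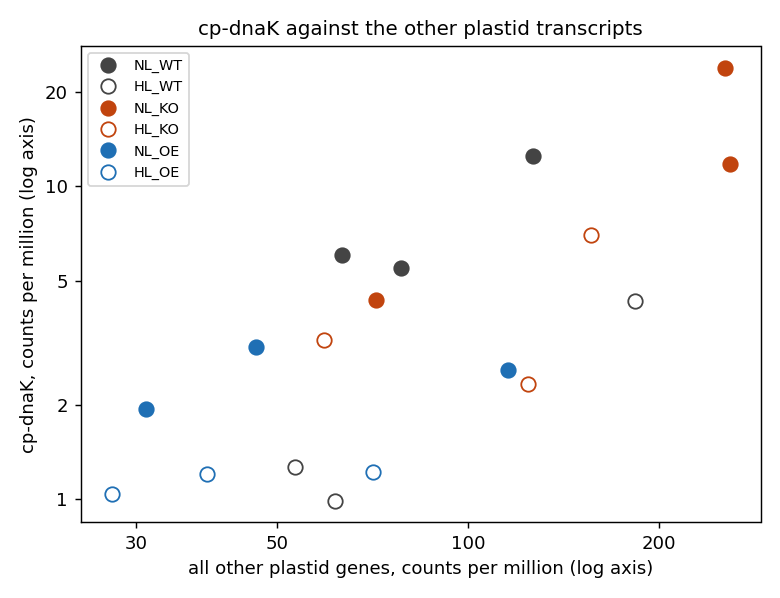
cp-dnaK in CPM against all other plastid genes in CPM, both on log axes, 1 point per library coloured by strain and filled at normal light. At a like amount of other plastid RNA the open points of WT lie below the filled ones.

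The translocase gene cp-secA was lower in OE than in WT at both light levels. It passed the count filter through WT and KO libraries alone, so its tests against OE are not independent of that filter. At normal light it had 34, 13 and 19 counts in WT, which is 2.35, 0.810 and 1.11 CPM, and 1, 3 and 5 counts in OE, which is 0.0567, 0.162 and 0.264 CPM. The groups did not overlap, as for 30.0% of tested genes with OE lower. edgeR called it, with an adjusted p = 0.0299 and a log2 fold change of -3.06 (SE 0.94). At high light cp-secA had 38, 5 and 12 counts in WT and 0, 0 and 1 in OE. Again the groups did not overlap, as for 27.4% of tested genes with OE lower there. The summed counts of 55 and 1 give a ratio of 63.1, with a 95% interval of 10.9 to 2535 that covers counting error only. HL_WT replicate 1 holds 38 of the 55 counts. Without it the counts of 17 and 1 give a ratio of 27.3, with an interval of 4.28 to 1142, and the gene was still called at high light (adjusted p = 0.0295, edgeR). With all libraries it was called at high light (adjusted p = 0.00508, edgeR) and averaged over both lights (log2 fold change -4.32, SE 0.81, adjusted p = 0.00061), the latter under all 28 alternative settings. The fold change over both lights was -3.69 without HL_WT replicate 1 and -5.18 without HL_OE replicate 3, the HL_OE library with the 1 count. The high-light call was lost in limma on log2(TPM + 1), at an adjusted p = 0.119, or 0.121 without a filter. The call at normal light was lost in the same limma fits, at an adjusted p = 0.13, or 0.131 without a filter. In edgeR it was lost without NL_OE replicate 1 (adjusted p = 0.102), 2 (0.0947) or 3 (0.0616) or without NL_WT replicate 1 (0.127).

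The share of plastid counts taken by cp-secA was below that of the other strains in each OE library, by a difference from WT that did not pass after adjustment. The 6 OE libraries held 0 to 0.492% and the other 12 held at least 0.525%, so the range of OE did not reach that of WT or KO. Against WT the mean share was 0.151% ± 0.187 and 1.22% ± 0.442 (n = 6 each). The two-sided exact permutation test within light gave p = 0.005, the smallest that it can give, and 0.0675 adjusted over the 108 tests. cp-secA and cp-groEL entered this test by passing the count filter, each through WT and KO libraries alone. The smallest p of 0.005 was reached by 6 of the 36 plastid genes, of which 5 were lower in OE. The other 1 was cp-psbA, which encodes the D1 protein of photosystem II and took 61.8% ± 12.04 of plastid counts in OE and 40.0% ± 6.54 in WT. A larger share of that gene lowers the shares of the rest. For cp-groEL the shares were 0.0298% ± 0.0729 in OE and 0.267% ± 0.174 in WT (exact permutation p = 0.015, adjusted 0.101). The other 14 tests of the 6 genes had an unadjusted exact permutation p of 0.102 or more. With cp-psbA left out of the plastid total, an alternative chosen after seeing the data, cp-secA made up 0.364% ± 0.408 in OE and 2.00% ± 0.593 in WT (exact permutation p = 0.005, 0.0656 adjusted over 105 tests). On that scale the highest OE library held 0.926% and the lowest WT or KO library 1.03%. cp-groEL was at an unadjusted exact permutation p = 0.07 there (adjusted 0.334). The light difference of cp-clpC-II passed on that scale, at 1.25% ± 0.836 in high light and 0.388% ± 0.294 in normal light, with the smallest exact permutation p that it can give, 0.00025 (adjusted 0.0262). For cp-dnaK the exact permutation p was 0.00375 (adjusted 0.0656).

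**Figure D3:**
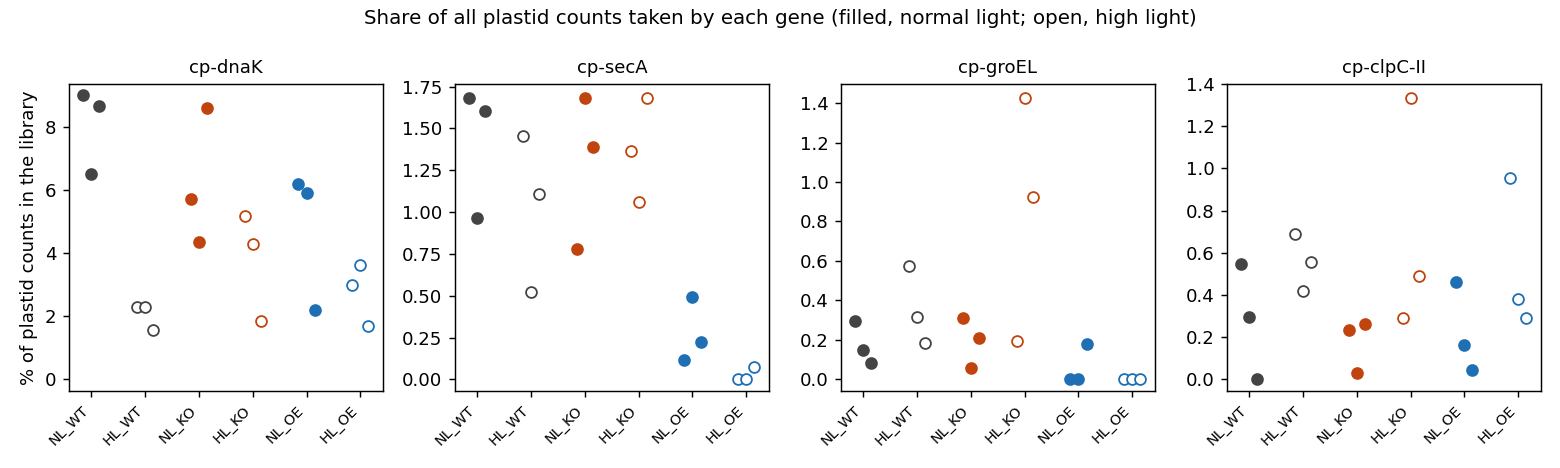
Percent of all plastid counts in a library taken by cp-dnaK, cp-secA, cp-groEL and cp-clpC-II (vertical axes), 1 point per library, filled at normal light and open at high light. The OE points of cp-secA lie at or below 0.492%, under every WT and KO point, and the WT points of cp-dnaK separate by light.

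The chaperonin gene cp-groEL and the protease gene cp-ftsH were called lower in OE than in WT at high light and were not called at normal light. cp-groEL had 15, 3 and 2 counts in HL_WT and 0 in each HL_OE library. With a floor of 3 counts per HL_OE library, or 0.162 CPM, the WT level was at least 2.55-fold higher, and edgeR called the gene (adjusted p = 0.0414). The bound rests on HL_WT replicate 1: without it the WT mean was 0.144 CPM, below the floor, and no bound remains. At normal light cp-groEL had 6, 2 and 1 counts in WT and 0, 0 and 4 in OE, which overlap and were not called (log2 fold change -1.32, SE 1.51, adjusted p = 0.578). cp-ftsH had 3.45, 0.977 and 0.930 CPM in HL_WT and 0.273, 0.0545 and 0.687 CPM in HL_OE. The groups did not overlap, as for 27.4% of tested genes with OE lower, and edgeR called the gene (adjusted p = 0.0294) with a log2 fold change of -2.35 (SE 0.77). At normal light cp-ftsH had 1.59, 0.623 and 0.994 CPM in WT and 0.794, 0.595 and 0.897 CPM in OE, which overlap (log2 fold change -0.47, SE 0.73, adjusted p = 0.686). Whether the strain difference itself depends on light was tested by the light response of OE against WT, which was not called for cp-ftsH (adjusted p = 0.379) or cp-groEL (adjusted p = 0.426). HL_WT replicate 1 carried much of the WT signal: without it cp-ftsH had a log2 fold change of -1.49 (adjusted p = 0.173) and cp-groEL lost its call (0.186). Without HL_OE replicate 1 or 2 cp-ftsH was not called (0.0952 and 0.111), and cp-groEL was not called without any one of the HL_OE replicates (0.0937, 0.0942 and 0.0886), without HL_KO replicate 3 (0.0517) or in limma on log2(TPM + 0.1) (0.0545).

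For the Clp unfoldase genes no difference between OE and WT was detectable at these counts. cp-clpC-II had 11, 4 and 0 counts in NL_WT and 4, 1 and 1 in NL_OE, and 18, 4 and 6 in HL_WT against 7, 2 and 4 in HL_OE. These groups overlap at both lights, with log2 fold changes of -1.50 (SE 1.29) and -1.34 (SE 1.07). cp-clpC-I-2 had 11, 2 and 2 counts in NL_WT and 0, 1 and 2 in NL_OE, which separate in CPM but share a count of 2 (log2 fold change -2.42, SE 1.55, adjusted p = 0.283). At high light it had 13, 0 and 0 counts in WT and 2, 0 and 3 in OE, so that 1 library holds the WT counts there. Its log2 fold change at high light was -1.59 with that library and 3.69 without it, called in neither case. cp-dnaK had non-overlapping groups at normal light, with WT at 5.48 CPM or more and OE at 3.06 or less. Groups apart there with OE lower, as for cp-dnaK and cp-clpC-I-2, were found for 30.0% of all tested genes. edgeR did not call cp-dnaK at normal light (log2 fold change -1.66, SE 0.61, adjusted p = 0.0617). DESeq2 called it there (-1.68, adjusted p = 0.0234). At high light its log2 fold change of -0.90 (SE 0.66, adjusted p = 0.303) became 0.0048 without HL_WT replicate 1.

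**Figure D4:**
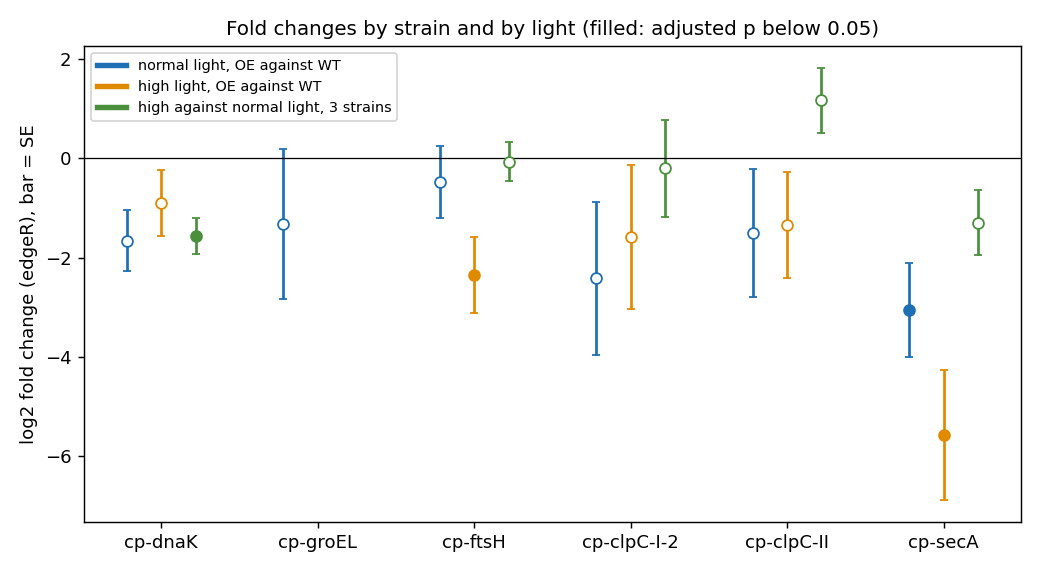
log2 fold changes from edgeR with their SE for OE against WT at each light and for high against normal light averaged over 3 strains, filled where the adjusted p is below 0.05. cp-secA is filled at both lights, cp-ftsH at high light and cp-dnaK for light. cp-groEL is drawn at normal light alone, since its HL_OE libraries were at 0 counts.

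In OE against WT, edgeR thus called 1 of the 6 genes lower at normal light and 3 at high light, where 10.9% and 15.1% of all tested genes were called lower. Over both lights it called 4 lower, cp-dnaK (log2 fold change -1.28, SE 0.45, adjusted p = 0.0316), cp-ftsH (-1.41, SE 0.53, adjusted p = 0.0442), cp-groEL (adjusted p = 0.043) and cp-secA, against 19.7% of all tested genes. cp-secA, among the 1, the 3 and the 4, and cp-groEL, among the 3 and the 4, passed the count filter through WT and KO libraries alone. The calls of these genes are therefore not independent of that filter. The median log2 fold change of the 6 was -1.58 at normal light and -1.97 at high light, or -1.47 with cp-groEL set at its bound. Over all tested genes it was -0.0031 and 0.02, over the 30 other plastid genes -1.32 and -2.37, and over the 18 mitochondrial genes -1.45 and -1.68. The lower values in OE were thus shared with the other organelle transcripts, of which 14 of 30 plastid and 10 of 18 mitochondrial genes were called lower over both lights. What part the lower organelle total has in the result was not tested, beyond the shares given for each gene. The 4 calls over both lights became 1, cp-secA, without NL_OE replicate 2, NL_WT replicate 1, HL_OE replicate 1, HL_OE replicate 2 or HL_WT replicate 1. They became 2 without NL_OE replicate 1 or 3, HL_KO replicate 3 or HL_OE replicate 3.

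Between KO and WT the 6 genes were not called. cp-secA had 10, 61 and 53 counts in NL_KO and 14, 23 and 31 in HL_KO. Its CPM, 0.595, 4.55 and 3.87 at normal light and 0.853, 1.73 and 2.13 at high light, overlapped with WT at both lights. cp-groEL and cp-clpC-II were highest in HL_KO replicate 2, with 31 and 29 counts, where the other HL_KO replicates had 2 and 17 counts of cp-groEL and 3 and 9 of cp-clpC-II. That library also had the most cp-ftsH of all, 54 counts. edgeR called 0 of 6 at normal light (adjusted p = 0.489 or more), at high light (0.404 or more) and over both (0.322 or more), with 0 at an unadjusted p under 0.05 in each. DESeq2 and limma called 0 as well. edgeR called 0.131%, 3.63% and 0.353% of all tested genes in these comparisons. At an unadjusted p under 0.05 it had 1198, 2014 and 1600 of 9912. Over both lights the fitted fold change was above 0 for 6 of the 6 genes, 28 of 30 other plastid genes and 18 of 18 mitochondrial genes, against 5180 of all 9912.

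KO and OE differed over both lights in 4 of the 6 genes, all higher in KO. The log2 fold changes were 5.04 (SE 0.78, adjusted p = 9.71e-05) for cp-secA, 2.13 (SE 0.45, adjusted p = 0.00102) for cp-dnaK and 1.96 (SE 0.52, adjusted p = 0.00532) for cp-ftsH, and cp-groEL was called as well (adjusted p = 0.00512, edgeR). cp-clpC-I-2 (2.38, SE 1.04, adjusted p = 0.0637) and cp-clpC-II (1.76, SE 0.83, adjusted p = 0.0837) were not called. cp-clpC-I-2 was called without NL_KO replicate 2 (0.0465), without HL_WT replicate 1 (0.0283) and without HL_WT replicate 1 and HL_KO replicate 2 together (0.0291), and cp-clpC-II without HL_KO replicate 1 (0.041). Of all tested genes 28.2% were called higher in KO. Among the other organelle genes 26 of 30 plastid and 18 of 18 mitochondrial ones were. The 4 calls held under every alternative that tested the gene, with a log2 fold change for cp-secA of 4.80 to 5.90 when 1 library was left out. The comparison shares the OE libraries with those against WT. Here too the calls of cp-secA and cp-groEL are not independent of the count filter, which both genes passed through WT and KO libraries alone.

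In order of its group means cp-dnaK stood at 13.4 ± 9.93 CPM in NL_KO, 8.02 ± 3.94 in NL_WT, 4.19 ± 2.48 in HL_KO, 2.53 ± 0.559 in NL_OE, 2.19 ± 1.85 in HL_WT and 1.15 ± 0.0994 in HL_OE (n = 3). Each group overlapped with its neighbour in that order. For cp-secA the order was 3.00 ± 2.11 CPM in NL_KO, 1.57 ± 0.653 in HL_KO, 1.42 ± 0.814 in NL_WT, 1.24 ± 1.31 in HL_WT, 0.161 ± 0.104 in NL_OE and 0.0176 ± 0.0305 in HL_OE. The first 4 groups overlapped in turn, and the libraries of NL_OE lay below those of HL_WT. The highest HL_OE library and the lowest NL_OE library had 1 count each. Within each strain the cp-dnaK mean was higher at normal light, and for cp-secA both OE means came last.

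Across libraries cp-groEL followed cp-clpC-II (Pearson r of log2(CPM + 1) 0.897 over 18 libraries) and cp-ftsH (0.867), while cp-dnaK followed cp-secA (0.811) and least of all cp-clpC-II (0.339). Without HL_KO replicate 2 and HL_WT replicate 1 these values were 0.685, 0.744, 0.832 and 0.350. With the sum of all other plastid genes r was highest for cp-secA (0.894) and lowest for cp-clpC-II (0.513). The libraries share their depth and their organelle content, and at these counts the weak values carry no finding. The genes outside the 6 that were most like their sum were the nuclear genes NO14G00880 (r = 0.958), NO20G00630 (0.958) and NO09G00730 (0.954). Those most like cp-dnaK were NO21G00230 (0.941), NO20G00630 (0.936) and NO01G00600 (0.933). The files do not pair these IDs with names.

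Of a list of other plastid genes for protein handling, 11 were in the files and 2 passed the count filter. cp-ycf46, a conserved plastid reading frame, was called lower in OE than in WT over both lights by edgeR (log2 fold change -2.33, SE 0.62, adjusted p = 0.00746). At high light it stood at 0.162 ± 0.0562 CPM against 2.31 ± 2.57. Without HL_WT replicate 1 the WT mean there was 0.840 CPM, and the log2 fold change of cp-ycf46 was -2.35 at high light (adjusted p = 0.0471) and -1.63 over both lights (adjusted p = 0.0242, edgeR). cp-ccs1, which acts in the assembly of c-type cytochromes, was lower over both lights too (-2.35, SE 0.81, adjusted p = 0.0289). That call was lost without NL_OE replicate 1 (0.0599) or 3 (0.0624), NL_WT replicate 1 (0.0813), HL_OE replicate 1 (0.0636) or HL_WT replicate 1 (0.0649). cp-ccs1 passed the count filter through WT and KO libraries alone, so its call is not independent of that filter. cp-ycf46 and cp-ccs1 had 0 calls between KO and WT and between lights. The channel gene cp-secY, the partner of SecA, had 0 to 12 counts per library. cp-tatC, of the twin-arginine translocase, had 0 to 9 counts, and cp-sufC, of iron-sulphur cluster assembly, had 0 to 6. These 3 genes did not pass the filter and were not tested.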

How the data were processed

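Polyadenylated RNA of 18 flask cultures was sequenced as paired reads of 150 bases, per the labels. Tools named are STAR, Salmon, Picard and Trim Galore, per the submitters' processing notes. Versions, genome build and annotation: not given in the sources used here. The deposited expected counts are estimated read counts per gene, not normalized, at least 96.3% of them whole in every library, and were rounded. The deposited TPM values are scaled by the authors for length and library total. All 160 organelle symbols matched the RefSeq table, and no sequence was read from it.

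edgeR 4.0.16 in R 4.3.3 tested the counts by the robust quasi-likelihood F test, with TMM scaling (factors 0.894 to 1.08) and filterByExpr, which kept 9912 genes. All 6 groups were fitted together without covariates. A gene was called at a Benjamini-Hochberg adjusted p below 0.05 over all tested genes, and SE is the fold change divided by the root of F. CPM carries the TMM factor. Of 13 comparisons, 1 was added after seeing the data. Shares of plastid counts were compared by two-sided exact permutation, adjusted over all 36 tested plastid genes. Intervals (95%, exact) were computed on counts summed over the libraries of a group. They and the floor of 3 counts cover counting error only and leave out the spread between libraries. PCR copies of reads cannot be told from separate molecules, so the counting error itself may be larger.

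Alternatives tried were DESeq2 1.42.0, RLE scaling, all genes with no filter, a filter of 10 counts in 9 libraries, the replicate block, the compared groups only, limma 3.58.1 with a trend on log2(TPM + 1) (with and without a filter) and on log2(TPM + 0.1), each library left out, and HL_KO replicate 2 and HL_WT replicate 1 left out together. Shares of the plastid total without cp-psbA were added after seeing the data. The fit and the permutation test were tested on simulated data. The named genes were the 6 members, NO07G02030, members of the protein-handling list that pass the filter and the 3 genes most correlated with the members' sum and with cp-dnaK. cp-psbA, cp-psbB, cp-secY, cp-tatC, cp-sufC and cp-clpC-I were named after their values were seen. Members and lists were chosen with earlier results of these data known.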

Additional observations from a re-analysis of the deposited data

How the results depend on the processing

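Of 14 counts of called genes, 7 stayed within 1.5 times their value under every alternative run. In OE against WT at normal light the count of 1 became 2 with DESeq2, in the fit of the compared groups and without HL_KO replicate 2 and HL_WT replicate 1 together, 0 with limma on log2(TPM + 1), with or without a filter, and 0 to 2 with 1 library left out. At high light the count of 3 became 0 with limma on log2(TPM + 1), with or without a filter, 0 in the fit of the compared groups, where the filter left 2 of the 6 genes, 1 without those libraries together and 1 to 3 with 1 library left out. Over both lights the count of 4 became 1 with the replicate numbers as a block, 1 with limma on log2(TPM + 1), with or without a filter, 2 with limma on log2(TPM + 0.1), 1 without those libraries together and 1 to 4 with 1 library left out. The light comparison in WT went from 0 to 1 (cp-dnaK) with DESeq2, in each of the 3 limma fits, without those libraries together and in a range of 0 to 1 with 1 library left out. It went from 0 to 1 in KO without those libraries together and in OE in the fit of the compared groups. Of all tested genes these settings called 3.41% in KO and 21.9% in OE, against 2.85% and 0.333% in the main fit. For OE against WT at normal light the main fit called 22.3% of all tested genes. There the fit of the compared groups called 52.1%, the fit without those libraries together 39.8% and DESeq2 28%. Among shares of plastid counts 0 passed, and 1 (cp-clpC-II between lights) with cp-psbA left out of the total. The cause of these changes was not tested, except that some settings tested fewer of the 6 genes. Without those libraries together cp-groEL did not pass the filter, so its loss from the counts there is no test result. The fit of the compared groups also tested fewer. In that fit cp-ftsH was still tested at high light and lost its call (adjusted p = 0.0669, edgeR). Its log2 fold change was -2.35 in both that fit and the main fit.

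Of 36 single values, 17 of 945 alternative values changed sign, none of a called value. Without HL_KO replicate 2 and HL_WT replicate 1 together, OE against WT gave 0.0050 for cp-dnaK and 3.70 for cp-clpC-I-2 at high light, and 0.64 for cp-clpC-I-2 over both lights. With 1 library left out these ran from -1.26 to 0.0048, from -2.24 to 3.69 and from -2.41 to 0.63. In the light comparison over the strains cp-ftsH ran from -0.41 to 0.11 and cp-clpC-I-2 from -1.96 to 0.31.

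Correlations of same-numbered deviations ran from -0.67 to 0.52, and no comparison had all 3 above 0.1. All 3 were above 0 in WT and in KO between lights and in OE against WT at high light, and not in the other comparisons. With 3 values per comparison, these correlations cannot decide whether replicate numbers pair the samples. The block also ended the call of cp-groEL at high light (adjusted p = 0.0669, edgeR), and moved no other count of called genes by more than 1.5 times. The counts called over all genes ranged from 2046 to 4195 for OE against WT at high light, from 1082 to 5119 at normal light and from 0 to 861 for KO against WT at high light. Depth limits these genes: cp-groEL, cp-clpC-I-2 and cp-clpC-II had a median of 2 to 4 counts per library.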

Other observations

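The mitochondrial translocase gene mt-tatC had 73 counts in HL_KO replicate 2 and 0 to 6 in each of the other 17 libraries. It was named after its values were seen. HL_KO replicate 2 is also the library with the most cp-groEL (31), cp-clpC-II (29) and cp-ftsH (54), while cp-clpC-I-2 had 2 counts there.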
